A study of Homo sapiens with 10 samples.

Results

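The regions described here are the ATAC-seq peaks that lie in an intron other than the first of the transcript they were annotated to. Members were taken from the deposited peak annotation by the written annotation of each peak: it had to begin with the word Intron and not name intron 1. Of 161934 peaks, 37334 met this rule, or 23.1% (95% Wilson interval 22.9% to 23.3%), and they made up 67.7% of the 55143 peaks annotated to an intron. ATAC-seq, in which the Tn5 transposase inserts sequencing adapters into accessible DNA, had been performed on MDA-MB-231, a widely used cell line grown from a triple-negative human breast cancer. The 10 libraries comprised 5 of ARID1A knockout cells and 5 of control cells. ARID1A is the DNA-binding subunit that defines 1 form of the SWI/SNF chromatin remodelling complex. The labels name neither the clones nor the way of the knockout, nor whether replicates came from separate cultures. The deposited annotation is 1 list for all 10 libraries, with 0 columns that hold a value per library, so the depth of the libraries is unknown, and knockout and control cells were not compared. What follows describes where these intron peaks lie, and intervals cover only the counting error over peaks, and peaks do not stand in for replicates.

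Introns are the stretches of a gene that are transcribed and then spliced out, and in long human genes they hold most of the sequence. Accessible sites within them are often enhancers, the start sites of alternative transcripts, or starts of other genes nested in the host. Such sites carry short motifs bound by transcription factors, among them the AP-1 motif bound by FOS and JUN proteins, which is common in distal accessible sites of many epithelial and mesenchymal cell types.

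Sequence could be read where a RefSeq transcript start lies inside one of these peaks, because the 250 bases before each RefSeq start are tabulated for build GRCh38.p14, the same build family as the hg38 coordinates of the peaks. In 104 cases all 250 bases before a RefSeq start fell within a later-intron peak. They belong to 98 peaks and 97 gene symbols, 79 of the stretches stand before lncRNA starts and 25 before protein-coding starts, and in 22 the RefSeq gene is the peak's own host. The list places each of these peaks more than 3000 bases from any transcript start of its own annotation, so these are starts that RefSeq holds and the list's annotation does not. The 4 stretches before protein-coding starts that hold the AP-1 motif TGANTCA, which reads the same on both strands, are shown first, with the motif in capitals. They come from MAN1C1, a mannosidase of the Golgi (chr1:25695905-25696154, plus strand, intron 2 of 13), SH3BP4, an adaptor of endocytosis (chr2:235027485-235027734, plus strand, intron 2 of 5), TMCC1, a membrane protein of the endoplasmic reticulum (chr3:129794613-129794862, minus strand, intron 3 of 5), and ABCD2, a fatty acid transporter of peroxisomes (chr12:39605508-39605757, minus strand, intron 3 of 9). The other 2 stretches, from CAMTA1, a calmodulin-binding transcription activator (chr1:7704486-7704735, plus strand, intron 11 of 22), and RAP1GAP2, which switches off the GTPase RAP1 (chr17:2853434-2853683, plus strand, intron 3 of 25), were chosen as the stretch with the most CG pairs (CAMTA1) and the stretch with the highest GC content (RAP1GAP2), and their CG pairs are in capitals.
MAN1C1: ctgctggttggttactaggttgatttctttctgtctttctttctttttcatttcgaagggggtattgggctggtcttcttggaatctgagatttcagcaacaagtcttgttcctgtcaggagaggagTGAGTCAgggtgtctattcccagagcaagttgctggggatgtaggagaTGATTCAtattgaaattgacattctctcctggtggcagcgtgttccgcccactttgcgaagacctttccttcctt
SH3BP4: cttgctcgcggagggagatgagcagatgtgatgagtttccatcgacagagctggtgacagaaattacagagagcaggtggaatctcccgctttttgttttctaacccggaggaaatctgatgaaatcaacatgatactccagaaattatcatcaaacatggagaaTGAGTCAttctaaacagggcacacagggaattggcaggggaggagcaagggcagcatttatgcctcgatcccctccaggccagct
TMCC1: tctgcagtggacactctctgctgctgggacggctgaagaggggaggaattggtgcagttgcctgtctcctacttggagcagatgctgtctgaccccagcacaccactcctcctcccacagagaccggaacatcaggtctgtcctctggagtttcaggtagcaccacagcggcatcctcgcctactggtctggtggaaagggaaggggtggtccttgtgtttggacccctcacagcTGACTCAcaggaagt
ABCD2: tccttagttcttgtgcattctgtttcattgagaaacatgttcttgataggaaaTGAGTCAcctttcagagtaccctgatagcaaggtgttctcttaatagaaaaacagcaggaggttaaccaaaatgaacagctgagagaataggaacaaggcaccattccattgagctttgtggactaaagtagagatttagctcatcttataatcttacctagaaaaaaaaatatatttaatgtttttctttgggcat
CAMTA1: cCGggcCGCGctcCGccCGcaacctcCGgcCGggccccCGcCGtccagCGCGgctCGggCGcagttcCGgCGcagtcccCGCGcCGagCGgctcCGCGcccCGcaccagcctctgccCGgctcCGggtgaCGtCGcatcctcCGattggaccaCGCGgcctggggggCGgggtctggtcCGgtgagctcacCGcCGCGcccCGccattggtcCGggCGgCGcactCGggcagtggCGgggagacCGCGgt
RAP1GAP2: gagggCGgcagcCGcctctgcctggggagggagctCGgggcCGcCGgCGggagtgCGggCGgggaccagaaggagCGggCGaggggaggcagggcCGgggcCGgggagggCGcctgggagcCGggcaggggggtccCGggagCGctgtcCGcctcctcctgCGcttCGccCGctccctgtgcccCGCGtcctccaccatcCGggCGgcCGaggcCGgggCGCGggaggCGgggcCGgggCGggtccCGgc

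The MAN1C1 stretch holds 2 AP-1 matches and the SH3BP4, TMCC1 and ABCD2 stretches hold 1 each. Their GC contents were 46% in MAN1C1, 48.4% in SH3BP4, 58% in TMCC1 and 35.2% in ABCD2, and they held 4, 6, 4 and 0 CG pairs in that order. The CAMTA1 stretch was 80.4% GC with 42 CG pairs and the RAP1GAP2 stretch 83.2% GC with 32. Over all 104 stretches the median GC content was 50.8% (quartiles 46% and 56.9%) and the median number of CG pairs was 4, against 66.4% and 22 over the 15473 stretches inside promoter peaks. MAN1C1 and SH3BP4 lie between the GC quartiles of the later-intron stretches, TMCC1 just above and ABCD2 below them. CAMTA1 and RAP1GAP2 lie above the promoter medians for both measures.

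AP-1 letters were found in 25% of the 104 later-intron stretches (95% Wilson interval 17.7% to 34.1%). The share was 25.9% of 58 stretches in first-intron peaks, 21.6% of 347 in distal intergenic peaks, 4.83% of 15473 in promoter peaks and 7.49% of 18760 that lie wholly within no peak. The share over all 34789 stretches was 6.55%. The RUNX motif TGTGGT, sought on both strands, was present in 29.8% (21.9% to 39.2%) of the later-intron stretches, in 25.9% (16.3% to 38.4%) of the first-intron ones, in 15.9% of the distal intergenic ones and in 11% of all. The TEAD letters GGAATG were in 15.4% and in 11.9% of all, an interval (9.70% to 23.5%) that holds the share of all. Letters common at promoters were rarer in later introns than there. The GC box GGGCGG was in 13.5% of the stretches, against 69.2% in promoter peaks and 42.6% of all. ETS letters CCGGAAG were in 4.81% (2.07% to 10.8%), against 15.4% in promoter peaks and 8.48% of all. GATA letters AGATAA were in 4.81% (9.20% of all) and TATA letters TATAAA in 7.69% (10.8% of all). The CRE letters TGACGTCA were in 0 of 104 (1.64% of all), which allows a share of up to 3.56% at the upper Wilson bound. For ETS, GATA, TATA and CRE the interval holds the share of all. These motifs were chosen with the data known, a match is no evidence of binding, and the 104 stretches are those with a RefSeq start, not a sample of all 37334 peaks.

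**Figure D1:**
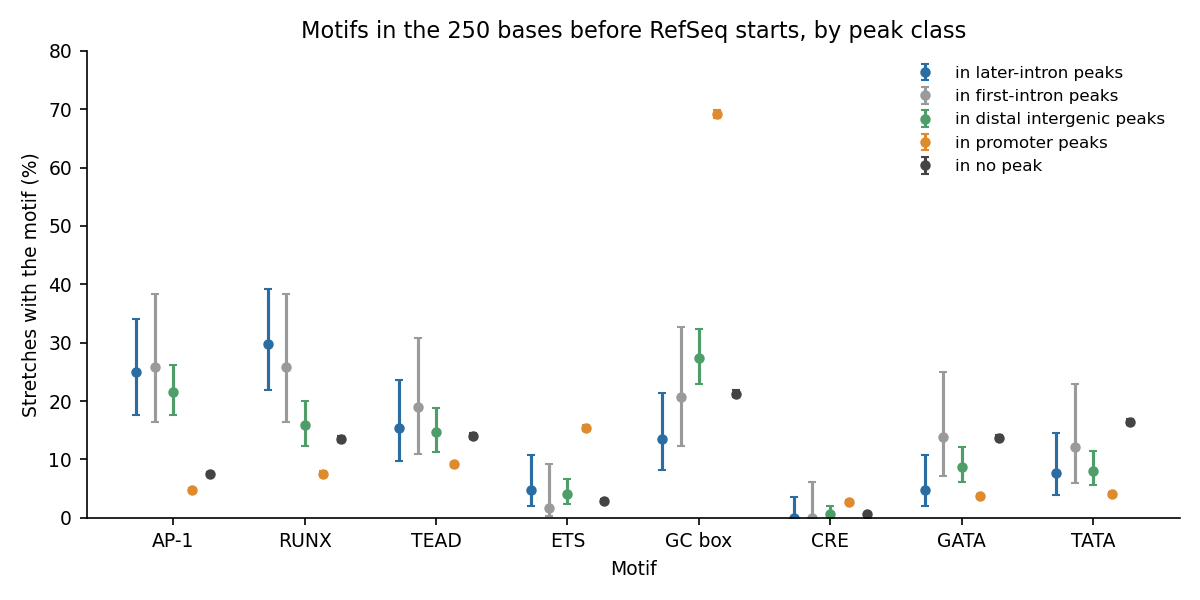
Share of 250-base stretches before RefSeq starts that hold each motif (vertical axis, percent) for the 8 motifs searched (horizontal axis), with points for the peak class that contains the stretch and bars for 95% Wilson intervals. Stretches in later-intron peaks (blue) had AP-1 letters in 25% and GC boxes in 13.5%, and those in promoter peaks (orange) had them in 4.83% and 69.2%.

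The list's annotation holds miRNA genes too, and a peak up to 3000 bases from a start is classed as promoter. A peak over a hairpin annotated there is thus of the promoter class by rule, and the split between classes is no finding. Of 1558 miRNA hairpins in RefSeq, 234 overlapped a peak of any class, 230 of these a promoter peak, and 1 overlapped a later-intron peak. That hairpin is MIR9851 on the minus strand of chromosome 10 (chr10:116827488-116827568), inside an 892-base peak in intron 2 of 12 of a host that was not paired with a symbol, within the RefSeq span of HSPA12A, a member of a heat shock protein family. Its mature products are shown with bases 2 to 8, the seed that pairs with targets, in capitals, and the 2 arms do not share a seed.
hsa-miR-9851-5p: cGCUGGCAguguuggugacacu
hsa-miR-9851-3p: uGGCACCAgcacuggcgguguc

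Peaks in later introns were narrower than those of the other large classes. Their median width was 484 bases (quartiles 323 and 718, range 123 to 3750), against 502 bases in first introns, 506 in distal intergenic sequence and 683 at promoters. Widths of 1000 bases or more were found in 9.65% of later-intron peaks (9.36% to 9.95%), in 11.4% of first-intron peaks and in 30.5% of promoter peaks. The shift between the intron classes is small beside the spread within each, since their quartiles nearly coincide. Later-intron peaks covered 21 Mb, or 19.9% of the 105 Mb of all peaks, less than their 23.1% of the number. Of the 37334 peaks, 81 were 2000 bases or wider.

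The distance to the nearest transcript start of the list's annotation had a median of 14788 bases (quartiles 7466 and 31283). The nearest lay at 3001 bases, since peaks up to 3000 bases from a start are classed as promoter, and the farthest at 363497 bases. A distance of 10 kb or more was found for 64.4% (63.9% to 64.9%) of later-intron peaks and 57.6% (56.8% to 58.3%) of first-intron peaks, and 50 kb or more for 13.5% and 8.36%. Distal intergenic peaks lay farther away, with a median of 21864 bases and 24.5% at 50 kb or more. Of the later-intron peaks 54.6% lay downstream of the nearest start in its direction of transcription, fewer than the 62.0% of first-intron peaks.

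The number of peaks fell with the number of the intron. Intron 2 held 11165 (29.9%), intron 3 held 6805 (18.2%) and intron 4 held 3955 (10.6%), so that introns 2 to 4 held 58.7% (58.2% to 59.2%). Introns beyond intron 10 held 16.2% and those beyond intron 20 4.81%. The median intron number was 4 (quartiles 2 and 7). The highest number belonged to SYNE1, which encodes nesprin-1, a very large protein linking the nuclear envelope to the cytoskeleton: a 494-base peak lay in its intron 147 of 147, and others of 166 and 517 bases lay in introns 133 and 100. Peaks in introns 100 or later were also found in NEB, which encodes the muscle protein nebulin (intron 108 of 149), in HMCN1, an extracellular matrix protein (105 of 106), in RYR2, a calcium release channel (101 of 104), and in SYNE2, the paralogue of SYNE1 (100 of 115).

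Width fell slightly along the same order. The median was 494 bases in intron 2, 486 in intron 3, 486 in introns 4 and 5, 482 in introns 6 to 10, 471 in introns 11 to 20 and 458.5 in introns 21 to 147. The share of peaks of 1000 bases or more was 10.6% (10.1% to 11.2%) in intron 2 and 7.29% (6.18% to 8.59%) in introns 21 to 147, and these intervals do not overlap. The median distance to a start moved otherwise: 14356 bases in intron 2, 15716 in introns 4 and 5 and 12982.5 in introns 21 to 147.

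**Figure D2:**
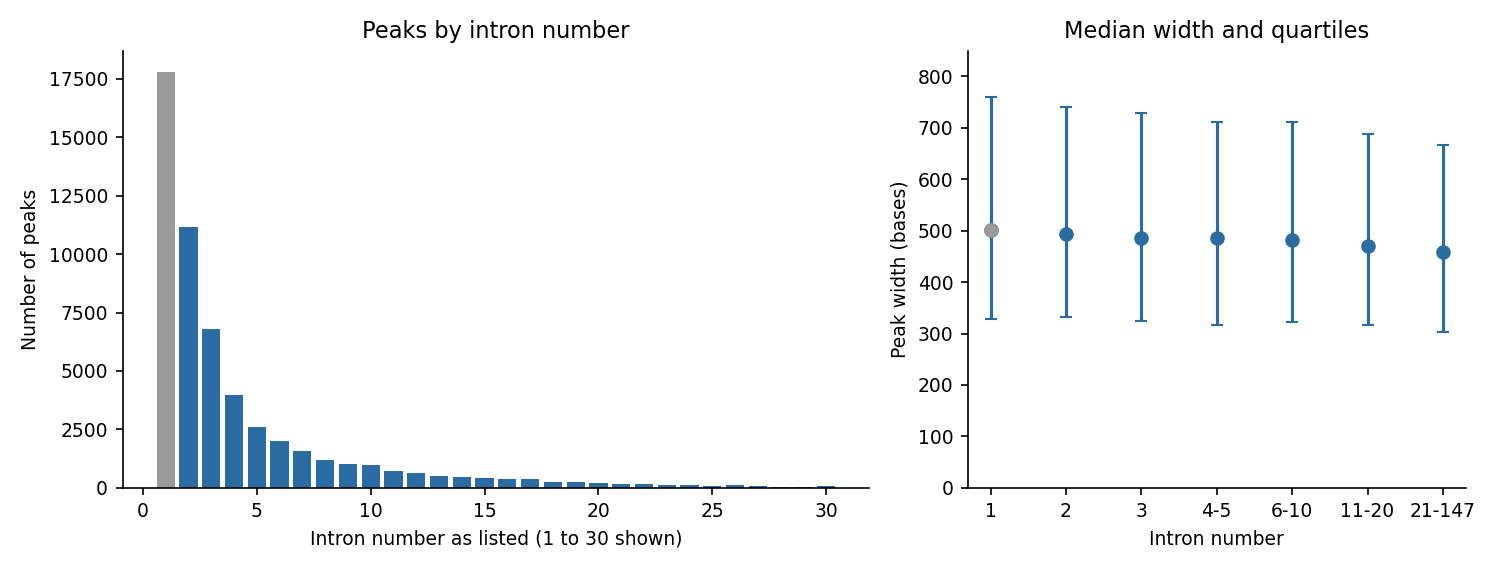
Left, number of peaks (vertical axis) by intron number for introns 1 to 30 (horizontal axis), with the first intron in grey and later introns in blue. Right, median peak width in bases (points) with quartiles (bars) by group of intron numbers; the medians go from 494 bases in intron 2 to 458.5 in introns 21 to 147, with quartiles that overlap throughout.

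Because few transcripts have many introns, the same was looked at within transcripts of 1 intron count. Among 2065 intron peaks whose transcript has 10 introns, intron 1 held 27.4%, intron 2 held 14%, intron 3 held 12.3% and intron 4 held 7.60%, where an even spread would give 10% each. The later introns of these transcripts held between 4.07% (intron 8) and 7.65% (intron 10), with no steady fall after intron 4. In transcripts with 20 introns, 987 peaks gave 25.9% in intron 1, 16.1% in intron 2, 8.71% in intron 3 and 4.76% in intron 4, against an even share of 5%. In transcripts with 2 introns the 4063 peaks were split 50.6% and 49.4%. Intron lengths are not in the list, so the counts could not be set per length of intron.

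The transcript that a peak is annotated to had a median of 10 introns (quartiles 5 and 19, up to 172). Transcripts with 10 to 19 introns held 28.9% of later-intron peaks, those with 5 to 9 held 26.0%, those with 20 to 49 held 20.4%, and those with 50 or more held 2.91%. The last intron of the transcript held 18.3% (18.0% to 18.7%) of later-intron peaks. This share depends on which transcripts are counted: it was 8.49% over transcripts with 5 introns or more, and 29.8% over the 6727 peaks that a single transcript overlaps. The choice of transcript matters because 82.0% of later-intron peaks were overlapped by 2 or more transcripts (median 4, quartiles 2 and 6) and 11.7% by 2 or more genes. The transcript named was the first of the overlapping ones in the row for 89.6% of peaks.

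Start and end of the named transcript could be read from the list for 24636 later-intron peaks (66.0%), because that transcript is the nearest one of some other peak. Of these, 60.5% (59.9% to 61.1%) lay past the midpoint of the transcript, against 19.98% (19.3% to 20.7%) of 13739 first-intron peaks. Later introns follow the first in every transcript, so the direction of this contrast is set by the member rule. The first 10% of the transcript length held 2.76% of later-intron peaks and each step of 10% from 50% to 90% held 12.3% to 12.8%. The median distance from the start of the named transcript was 89918 bases, while the nearest start of any transcript lay 15091.5 bases from the same peaks. The nearest start was that of the named transcript for 8.40% of them. The start that an intron number counts from was thus seldom the nearest one, and by these medians lay farther away.

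**Figure D3:**
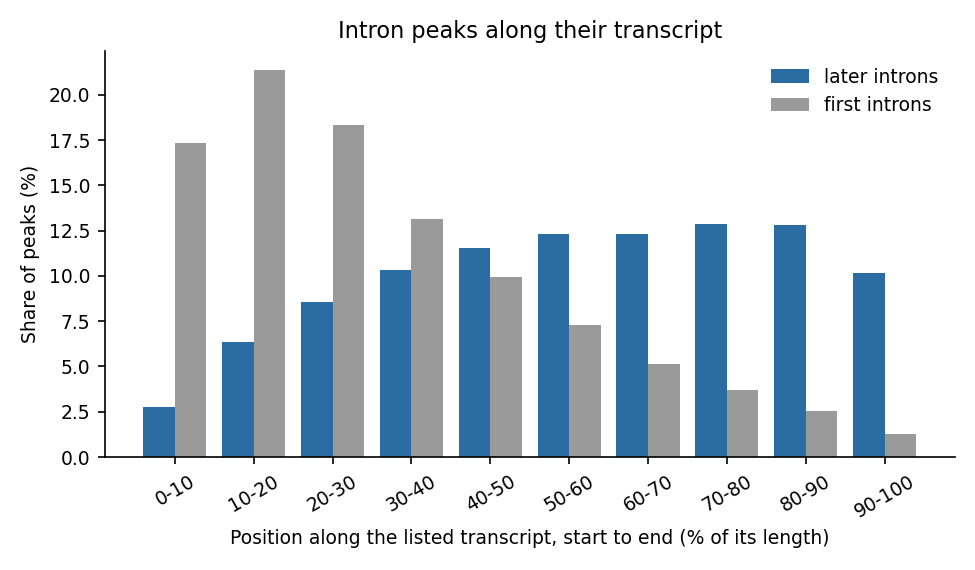
Share of peaks (vertical axis, percent of each class) by position along the named transcript in steps of 10% of its length from start to end (horizontal axis), for 24636 later-intron peaks (blue) and 13739 first-intron peaks (grey). First-intron peaks are most frequent at 10% to 20% of the length (21.4%), and later-intron peaks stay between 11.6% and 12.8% from 40% to 90%. Later introns follow the first, so the order of the classes is set by rule.

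For 42.1% of later-intron peaks (41.6% to 42.6%) the nearest transcript start belonged to another gene than the host of the intron. The share was 36.1% (35.4% to 36.8%) for first-intron peaks. It rose with distance, from 34.6% at 3000 to 5000 bases over 41.2% at 10 to 20 kb to 54.6% at 100 kb or more. First-intron peaks gave 33.6%, 34.3% and 53.5% at the same distances, so the classes were apart between 5 and 100 kb and had overlapping intervals at the nearest and the farthest distances. Of the 14163 such peaks for which the strands could be compared, 59.5% had the other gene on the strand opposite to the host. For 9217 of these peaks the other gene was paired with a RefSeq symbol, and it was a pseudogene for 42.7% of them, protein-coding for 26.9%, an lncRNA for 18.8% and a miRNA for 8.38%. A gene counts here once for each peak it is nearest to. The other transcript lay wholly inside the host for 75.4% of the 10814 peaks where both spans were known. With nearest pseudogenes and miRNAs not counted as another gene the share was 29.3%. Nearest genes without a paired symbol were still counted as another gene, so this value is an upper limit.

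**Figure D4:**
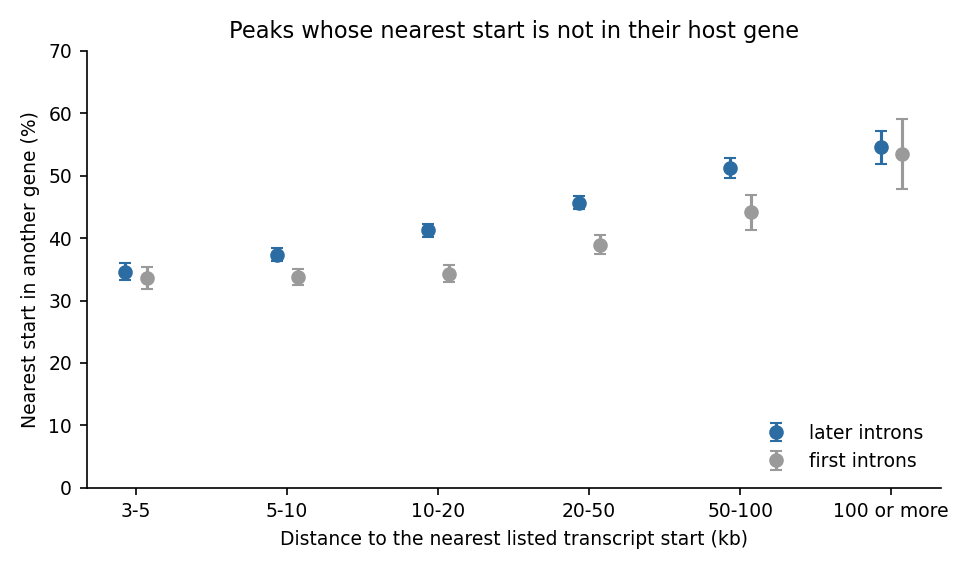
Share of peaks whose nearest transcript start belongs to another gene than their host (vertical axis, percent) by distance to that start (horizontal axis, kb), for later introns (blue) and first introns (grey), with 95% Wilson intervals. Both rise with distance, later introns from 34.6% to 54.6%, and the intervals of the classes overlap in the first and last distance groups.

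The 37334 peaks lay in introns of 8672 host genes. The median host had 2 (quartiles 1 and 5), and 36.4% of hosts had 1. The 940 hosts with 10 or more held 44.9% of all later-intron peaks, the 252 with 20 or more held 20.2%, and the 87 hosts that make up the top 1 percent held 9.81%. By intron, 18201 introns held at least 1 peak, 61.4% of these held exactly 1, and 339 held 10 or more. Successive peaks of 1 intron were separated by a median of 5902 bases (quartiles 1896 and 13656), and 15.9% of the gaps were 1000 bases or less. Counting peaks within 1 kb of each other once left 34297.

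The list gives Ensembl gene identifiers, and 72.6% of the hosts, with 77.8% of the peaks, were paired with a RefSeq symbol by position. Of the peaks of paired hosts, 90.8% lay in protein-coding genes and 8.40% in lncRNA genes. Long genes held more: across 5535 paired protein-coding hosts the rank correlation of the number of later-intron peaks with gene length was 0.644 (Spearman, across genes that are not independent). Hosts under 50 kb had a median of 1 peak and those of 500 kb or more had a median of 16. Per length the ends of this range were reversed, with a median of 0.429 peaks per 10 kb in hosts under 50 kb and 0.196 in hosts of 500 kb or more. These medians are over genes that hold at least 1 peak, and a short gene with 1 peak has a high value per length by arithmetic. With genes that hold no peak included, short genes were not denser. Pooled over all protein-coding genes there were 0.00946 per 10 kb under 10 kb and 0.117 from 10 to 50 kb. Genes of 200 to 500 kb had 0.291 and those of 500 kb or more 0.225.

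The host with most later-intron peaks was PTPRN2, a receptor-type phosphatase of secretory vesicles, with 105 peaks over its 1049 kb on chromosome 7 (chr7:157539056-158587823). They were spread over 14 introns from intron 2 to intron 21, with 25 in intron 11 and 21 in intron 2, and their median width was 449 bases. TENM2, a teneurin adhesion protein of chromosome 5, held 91, of which 47 were in intron 2 of 28, the most in any single intron.

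CDH13, the membrane-anchored T-cadherin, held 71 peaks in 11 of its introns, led by 12 in intron 6 and 11 in intron 7 of 13. MYO16, an unconventional myosin, held 70 spread thinly over 23 introns, with at most 8 in any of them. CDH4, R-cadherin, held 70, but 46 of these were in intron 2 of 15. GPC5, a glypican of the cell surface, held 69, of which 36 were in its last intron, 7 of 7. RPS6KA2, a ribosomal S6 kinase downstream of the MAP kinase pathway, held 65, with 28 in intron 3 and 21 in intron 2 of the transcript with 22 introns. CAMTA1 held 64, all between introns 3 and 11 of 22, with a median width of 649.5 bases, the largest of the 10, and 90.6% had their nearest start in another gene. The leading hosts described thus include some with 1 dominant intron (TENM2, CDH4 and GPC5) and some with peaks spread over many (MYO16, CDH13 and PTPRN2).

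**Figure D5:**
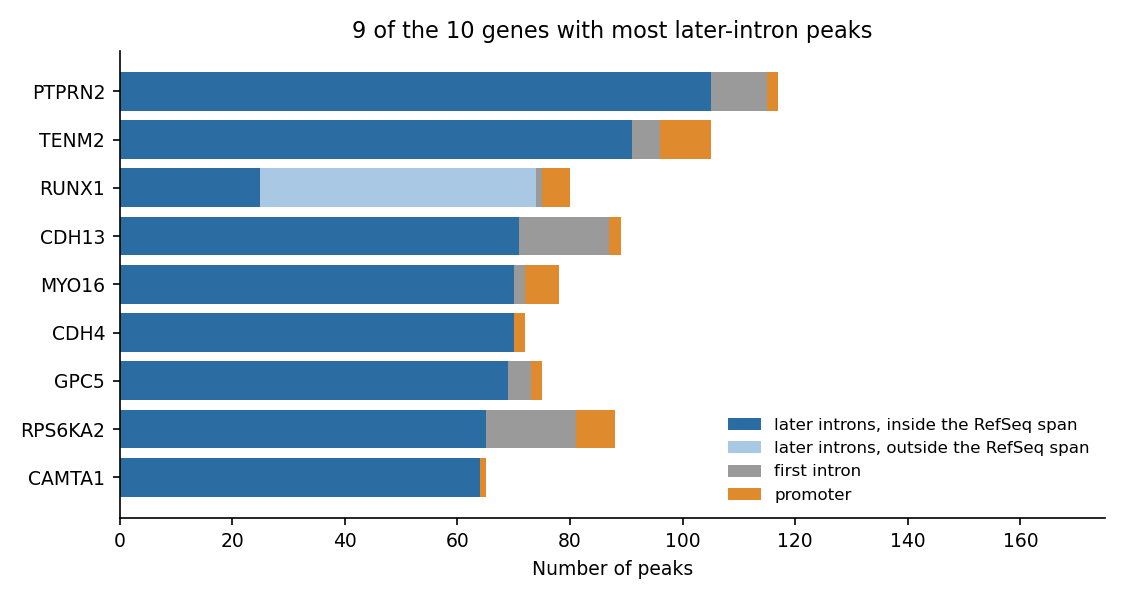
Number of peaks (horizontal axis) in 9 of the 10 genes with most later-intron peaks, split into later introns inside the RefSeq span of the gene (dark blue), later introns outside it (light blue), the first intron (grey) and promoter (orange). PTPRN2 leads with 105 later-intron peaks, and RUNX1 has 49 of its 74 outside its RefSeq span.

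RUNX1, a transcription factor known from blood development, held 74, and 25 of these lay inside the RefSeq span of the gene (chr21:34787801-35049302). The other 49 lay in introns of long transcripts that the list's annotation gives to the same identifier, and 27 of all 74 were in intron 9 of 12 of 1 such transcript. Peaks outside the RefSeq span were 4.67% of the peaks of paired hosts. Other hosts with many were RFLNA (27 of 29 outside), ZFPM2 (25 of 41), ROR2 (21 of 30) and PRICKLE2 (17 of 19), which were named after their values were seen. For 6 of the 766 paired hosts with 10 or more later-intron peaks, none lay inside the RefSeq span. Among them were MRPL33 with 17 and KCNS3 with 16, genes of 8015 and 55112 bases in RefSeq. A count by gene identifier in such cases describes a neighbourhood wider than the gene.

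Single introns with many peaks were also found outside the 10 leading hosts. Intron 8 of 8 of WWOX, an oxidoreductase with WW domains, held 45 of the 48 later-intron peaks of that gene, and intron 2 of 2 of GSE1 held all 35 of that gene. Intron 2 of 5 of the lncRNA DYNLRB2-AS1 held 32, and for all of these the nearest start belonged to another gene. Intron 2 of 11 of EBF1, a B cell transcription factor, held 28, and intron 2 of 24 of FRMD4A, a cytoskeletal scaffold protein, held 27.

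Counted per length inside the RefSeq span, the densest hosts with 10 or more peaks were shorter genes. TFDP1, the DP1 partner of E2F factors, held 10 in 56.8 kb, or 1.76 per 10 kb, of which 6 were in intron 3 of 6. ADGRB1, an adhesion receptor, had 1.57 per 10 kb (15 peaks in 8 introns), the lncRNA TRIB1AL also 1.57 (12 peaks, all in intron 2 of 3), and IRAK2, a kinase of interleukin-1 signalling, 1.52 (12 peaks in 6 introns). RPS6KA2 followed with 1.43 and is the 1 gene among both the 10 leading and the 5 densest hosts. The median over 719 hosts with 10 or more peaks inside the span was 0.485 per 10 kb, and PTPRN2 stood at 1.001, TENM2 at 0.708 and GPC5 at 0.470. Counting all peaks of a host over its RefSeq length instead put MRPL33 (21.2), RPL37A (20.98), RFLNA (10.8), MRPS22 (9.89) and TMEM179 (8.63) first, which together had 3 peaks inside their spans.

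Of the 5 widest later-intron peaks, 4 are described here, and they lay in intron 2 or 3 of 4 genes. A peak of 3088 bases lay in intron 2 of 14 of a host that was not paired, inside the RefSeq span of HIPK2, a nuclear kinase. Peaks of 2938 bases in intron 3 of 7 of GALNT9, an enzyme that starts O-linked glycosylation, of 2825 bases in intron 2 of 9 of NFIX, a nuclear factor I transcription factor, and of 2810 bases in intron 2 of 8 of KCNIP3, a calcium-binding protein, followed. In each of these 4 the nearest start belonged to the host itself, at 4741 bases for KCNIP3 and at 13654 bases or more for the others.

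Most hosts of later-intron peaks had a promoter peak too. The share of all protein-coding genes with a promoter peak was not counted, so the shares below are not shown to be particular to hosts. Of 5535 protein-coding hosts, 93.9% (93.2% to 94.5%) had at least 1 peak of the promoter class, and of the 198 with 20 or more later-intron peaks 196 had one. The exceptions were PAX5, a B cell transcription factor, with 25 later-intron peaks in introns 5 to 9, and MYRIP, which links RAB proteins to myosins, with 24 in introns 2 to 11. Neither had a peak over any of its RefSeq starts (1 tabulated for PAX5 and 3 for MYRIP), and each had 1 first-intron peak. KCNAB1, a potassium channel subunit, with 18, FGF12, an intracellular fibroblast growth factor homologue, with 15, and SLC4A10, a bicarbonate transporter, with 15 of which 8 lay in the RefSeq span, also had none over a RefSeq start. ZNF385B and ASTN2, with 15 each, had no promoter-class peak to their name, but 1 of 5 and 2 of 3 of their RefSeq starts were overlapped by a peak. A list without a peak at a start shows only that none was called or kept there.

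ARID1A, the gene that was knocked out, held 2 later-intron peaks, both in intron 4 of 19, of 778 and 893 bases, with 2 first-intron and 7 promoter peaks. The list cannot show whether these differ between knockout and control libraries. ARID1B, its paralogue and the alternative subunit of the complex, held 18 between introns 2 and 13 of 20, of which 7 lay in intron 6, with widths from 165 to 1061 bases. Its RefSeq span is 435 kb against 86.1 kb for ARID1A, and per 10 kb they had 0.414 and 0.232.

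Gene lists are read against all protein-coding genes, of which 5535 of 18897 (29.3%) held a later-intron peak and whose median was 0. A further 1077 genes were left out because their state could not be determined. This share rises with length: 0.940% of genes under 10 kb, 20.2% from 10 to 50 kb, 55.4% from 50 to 100 kb, 77.9% from 100 to 200 kb, 91.6% from 200 to 500 kb and 97.0% at 500 kb or more. The median length of all genes counted was 22.5 kb, and lists of longer genes therefore hold more by length alone. Peaks up to 3000 bases from a start are classed as promoter, so genes of a few kb have almost no room for a later-intron peak. The lists were drawn up with earlier results of these data known, and no test of a list was made.

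Of 26 SWI/SNF subunits 14 held a later-intron peak (53.8%, median 1.5 peaks, median length 45.6 kb). After ARID1B came DPF3, a histone-reading subunit, with 11, and SMARCA4, the BRG1 ATPase, with 7, of which 2 lay in the RefSeq span. Among the other 12 subunits, SMARCD1 (15.4 kb), SMARCE1 (22.9 kb) and SMARCB1 (51.0 kb) held 0.

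The receptor kinase and adhesion lists were above the 29.3% of all genes but not above the share in the length class of their median gene. Of 24 receptor tyrosine kinase and MAPK genes 13 held a peak (54.2%), with a median length of 106 kb, and 77.9% of all genes of 100 to 200 kb did. Pooled they had 0.159 per 10 kb, below the 0.219 of all genes. They were led by the growth factor receptors IGF1R (16) and EGFR (8), followed by MET, INSR and ERBB4 with 6 each. EGFR had 20 first-intron peaks beside its 8 later ones, while IGF1R had 3. Of 24 integrin and focal adhesion genes 13 held one (54.2%), with a median length of 82.6 kb, and 55.4% of all genes of 50 to 100 kb did. Pooled they had 0.254 per 10 kb. They were led by PTK2, the focal adhesion kinase (18), and TNS3, a tensin (15), followed by the integrin chains ITGB5 and ITGA1, TNS1 and TLN2 with 6 each.

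Of 18 YAP and TEAD genes 11 held a later-intron peak (61.1%, median length 70.6 kb), near the 55.4% of all genes of 50 to 100 kb. Pooled over their RefSeq spans they had 0.615 per 10 kb, the highest value of the lists. All genes had 0.219, those of 50 to 100 kb 0.196 and those of 200 to 500 kb 0.291. Of the 102 peaks of the list, TEAD1 and FRMD6 held the most. TEAD1, the DNA-binding partner of YAP, held 28 (1.04 per 10 kb), FRMD6, an upstream regulator, 22 and WWTR1, which encodes TAZ, 13. YAP1 itself held 11 (0.894 per 10 kb). The secreted targets CCN1 and CCN2, genes of 3.19 and 3.20 kb, held 0, which the promoter rule all but fixes at this length. Of 23 TGF-beta and BMP genes 15 held one (65.2%, median length 87.8 kb, pooled 0.386 per 10 kb). They were led by LTBP1, which binds latent TGF-beta (35), and by the inhibitory factor SMAD6 and the latent binding protein LTBP2 with 11 each. All 11 of SMAD6 lay in its intron 3 of 3.

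Of 24 mesenchymal genes 11 held one, led by the collagen COL5A1 (12), the ligand TGFB2 (10) and the repressor ZEB1 (8). VIM (9.35 kb), COL1A1 (17.5 kb) and FN1 (75.2 kb) held 0. Of 22 epithelial genes 8 held one, led by the factor GRHL2 (11), with 3 each in the tight junction protein OCLN, in CDH1, E-cadherin, and in the factor OVOL2, whose 3 lay outside its RefSeq span. Of 17 luminal breast genes 6 held one: ESR1, the oestrogen receptor, held 20 in a span of 473 kb, TBC1D9 held 3, and GATA3, NAT1 and MLPH held 2 each. The epithelial genes EPCAM (17.7 kb) and ELF3 (6.60 kb) and the luminal genes FOXA1 (5.70 kb) and PGR (100 kb) held 0. The shares were 45.8% of mesenchymal genes (median length 56.8 kb), 36.4% of epithelial (26.4 kb) and 35.3% of luminal genes (27.3 kb). All genes gave 55.4% from 50 to 100 kb and 20.2% from 10 to 50 kb. MDA-MB-231 is a basal-like, mesenchymal line, and its cell state cannot be read from these counts.

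Lists of short genes had the lowest shares. Only the cell cycle list was also below the length class of its median gene, 20.2% of all genes of 10 to 50 kb. That class is a loose match, since the list median lies near its lower end. Some list genes, such as CDK4 (4.58 kb) and CDK2 (5.96 kb), are under 10 kb, and no comparison at matched length was made. Of 25 cell cycle and replication genes 2 held a later-intron peak, or 8%, with a median length of 13.3 kb. They were CDK6, a kinase of the G1 phase, with 26 (1.12 per 10 kb), and E2F3 with 2. By position, with peaks of any host counted, 4 of 27 did. Of 17 AP-1 and stress factors 4 held one (23.5%, median length 13.0 kb), led by BACH2 (18), NFE2L2 (5, none inside its RefSeq span) and BATF (2). Of 15 housekeeping genes 4 held one (26.7%, median length 8.67 kb), with 2 in YWHAZ and 1 each in GUSB, PGK1 and HPRT1. All genes under 10 kb gave 0.940%, but these 4 genes are each longer than 10 kb.

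All 23 neuronal adhesion and synapse genes held later-intron peaks, with a median of 15 and a median length of 1338 kb. Pooled per length they had 0.175 per 10 kb, below the 0.225 of all genes of 500 kb or more. The range within the list was wide: PTPRN2 held 105 and TENM2 91, CNTNAP2, a neurexin-like protein, held 46 in 2304 kb, and the receptor phosphatase PTPRD held 2 in 2299 kb. Among markers of other cell types, 7 of 19 leukocyte genes held one (36.8%, median length 34.9 kb). They were led by the adaptor FYB1 (7) and the integrin ITGAM (3), with 2 each in CD8A, IKZF3 and PTPRC. Of 13 endothelial genes 6 did (46.2%, median length 47.1 kb). They were led by the transcription factor ERG (12), VWF, the von Willebrand factor (10), and EMCN (9, of which 1 in the RefSeq span). All genes gave 29.3% and those of 10 to 50 kb 20.2%. Both lists also hold far longer genes, such as FYB1 (169 kb) and ERG (295 kb). ERG, EMCN and TEK had 0 promoter peaks, while each of the other endothelial genes counted had at least 1, up to 8 in FLT4.

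The share of peaks that lie in later introns differed between chromosomes. It was highest on chromosome 3 (28.0%, 27.2% to 28.9%), followed by chromosomes 10 (26.2%), 2 (26.2%) and 7 (26.1%). It was lowest on chromosome 19 (11.9%, upper bound 12.8%), then on 22 (15.5%), X (17.0%) and 17 (18.2%). On chromosome 19 the later-intron peaks also lay closest to a start, with a median of 7525 bases, against 18511 on X. No later-intron peak lay outside chromosomes 1 to 22 and X.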

How the data were processed

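The deposited file holds 1 peak annotation for 10 ATAC-seq libraries (5 ARID1A knockout, 5 control). Per the submitters' processing notes, Bowtie2 2.3.5.1, MACS2 2.2.6 and build hg38 were used. The peak calling threshold, the treatment of duplicates, an offset for Tn5 insertion, the joining of peaks between libraries and the release of the gene annotation are not stated in the sources used here. They set the number, width and edges of all peaks. Per the file headers, the authors' columns give positions and widths in bases, the annotated feature, and the nearest transcript with its distance. The list has 17 columns, of which 0 hold a value per library, and no depth.

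Members and gene lists were chosen with earlier results of these data known. Intron number and count were read from the written annotation. An Ensembl host was paired with a GRCh38.p14 RefSeq gene where their spans overlapped by at least 0.7 of their union, by 1 listed transcript or all together. The longest overlap won, and 159 non-coding pairs with most peaks outside the gene were dropped. This pairing rule was revised after its pairs were seen. On simulated spans 1991 of 2000 genes were paired rightly and 8 wrongly. Named genes are the 10 hosts with most peaks, the 5 densest with at least 10 (counted inside the RefSeq span, a change made after the values were seen), the leading 3 of each list, ARID1A, ARID1B and the hosts of the 5 widest peaks. Others were named after their values were seen. Some genes and 1 list that these rules name are not reported here. Shares carry 95% Wilson intervals. Peaks did not overlap each other in the list (0 pairs). Python 3.11.15, pandas 2.3.3, numpy 2.4.6 and matplotlib 3.10.9 were used.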

Additional observations from a re-analysis of the deposited data

How the results depend on the processing

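The share of later-intron peaks among all peaks, 23.1%, was 19.6% among peaks at least as wide as the median of the list and 19.9% counted in bases. The share in introns 2 to 4, 58.7%, was 60.2% among such wide peaks, 47.3% in transcripts with 5 introns or more and 69.9% where a single transcript overlaps the peak. For the last intron, 18.3% became 8.49% in transcripts with 5 introns or more and 29.8% with a single transcript. The share 10 kb or more from a start, 64.4%, was 39.3% at 20 kb or more. The share whose nearest start is in another gene, 42.1%, was 45.3% at 10 kb or more from a start and 38.4% where a single gene overlaps the peak. Without nearest pseudogenes and miRNAs it was at most 29.3%, since genes without a paired symbol were kept. Protein-coding genes with a later-intron peak, 29.3%, were 33.5% by position and 26.8% with pairing at 0.9. In these settings other peaks, transcripts or genes are counted, which moves the values by construction. Of 39 alternatives computed, 25 kept a share or median within the 95% interval of the value reported, or a count of list genes within 1.5 times. The single-transcript, single-gene, pseudogene, pairing, motif and list alternatives were chosen after seeing the data.

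No paired analysis was possible because knockout and control libraries share 1 peak list without values of their own. Leaving out each library in turn was not run, as it needs such values too. Depth per library is unknown, a missing peak shows only that none was listed, and the intron number depends on 1 transcript chosen among a median of 4.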
